A study of Rattus norvegicus with 29 samples.

Results

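The genes described here carry a signal from heterotrimeric G proteins to cyclic AMP and onward: G protein alpha, beta and gamma subunits, adenylyl cyclases, the catalytic and regulatory subunits of protein kinase A (PKA), and cyclic nucleotide phosphodiesterases. They were taken by gene symbol from probe sets that the platform table pairs with 1 symbol, leaving out Gnal, Adcy5, Pde10a and Pde1b, which are given only with the other pathway genes. The rule found 63 genes of the 14218 with such a probe set, on 91 of 31099 probe sets, and each gene was read from its brightest probe set over all arrays. Of the 63 genes, 52 lay above the filter on dim probe sets and were tested. They comprised 9 alpha, 6 beta and 9 gamma subunits, 6 cyclases, 2 catalytic and 4 regulatory PKA subunits, and 16 genes with a phosphodiesterase symbol. Symbols brought in a few relatives: Gnb1l encodes a protein that resembles the beta subunits, Pde4dip encodes myomegalin, a binding partner of a phosphodiesterase, Pde6d encodes a carrier of lipid-modified proteins, and Pde6g and Pde6h encode inhibitory subunits of the photoreceptor enzymes.

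The samples were RNA from the nucleus accumbens shell of P rats, a line selectively bred for high voluntary ethanol intake, measured on Affymetrix rat arrays with 1 array per sample. The labels give 10 samples exposed to continuous ethanol, 10 with limited access to ethanol and 9 that had water only. The design text names 10 samples per group, and the tenth water sample was not analysed here. All groups share the P background, so no non-preferring line stands beside them, and age, sex, ethanol intake and the length of exposure are not given in the sources used here. Values are log2 expression values made with RMA (robust multi-array average), so a difference of 1 is a doubling.

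In striatal medium spiny neurons, dopamine D1-type and adenosine receptors raise cyclic AMP through a stimulatory G protein, and D2-type and opioid receptors lower it through Gi and Go proteins. Cyclic AMP releases the catalytic subunits of PKA from their regulatory subunits, and phosphodiesterases end the signal. In this tissue the alpha subunit of the stimulatory G protein is largely Gnal, which assembles with Gng7 and acts on the cyclase Adcy5. Ethanol has long been studied as a modulator of cyclases and of PKA signalling.

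The labelled tissue was set beside its markers. The filter left out only the dimmest 30 percent of probe sets, so lying above it does not tell this tissue from others. All 13 medium spiny neuron markers on the array lay above the filter, with mean log2 values of 13.54 for Penk, 12.53 for Ppp1r1b and 12.14 for Drd1. Markers of cortical excitatory neurons were also above it (9 of 9, with Slc17a7 at 11.42 and Tbr1 at 7.12), as were all listed endothelial, leptomeningeal, oligodendrocyte, astrocyte and microglial markers on the array and 5 of 9 choroid plexus markers. The array medians lay between 8.17 and 8.21, and pairs of arrays correlated at 0.971 to 0.997 over the tested probe sets. A group of 5 arrays (water replicates 2, 5 and 6 and limited access replicates 6 and 7) lay apart from the others along principal component 2, which held 16.5% of the variance. In whole tissue, fewer cells of a type and less RNA per cell cannot be told apart.

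None of the 52 tested members passed an adjusted p of 0.05 in any comparison. Between continuous ethanol and water the smallest adjusted p was 0.129, where 0.152% of all tested probe sets passed (33 of 21729). For limited access against water it was 0.972, with 0% of probe sets past the threshold. Limited access against continuous ethanol gave 0.526 at the lowest, with 0.0046% of probe sets past it (1 probe set), and the F test over the 3 groups gave 0.315 (0.0828% of probe sets past it). For every member, the values of any pair of groups overlapped. The share of all tested probe sets with such overlap was not computed.

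At an unadjusted p under 0.05, 10 members differed between continuous ethanol and water, 5 higher and 5 lower under ethanol. That is 19.2% of members, beside 16.1% of all tested probe sets (9.62% higher and 6.48% lower). Limited access against water gave 3 members, or 5.77%, 2 higher and 1 lower, beside 4.44% of probe sets (2.1% higher and 2.34% lower). Limited access against continuous ethanol gave 7 members, or 13.5%, 5 higher and 2 lower under limited access, beside 9.31% (3.56% higher and 5.74% lower). By direction, 9.62% of members were higher and 9.62% lower between continuous ethanol and water, 3.85% and 1.92% between limited access and water, and 9.62% and 3.85% between the schedules. Between the schedules more members were higher than lower and more probe sets were lower than higher, on counts of 5 and 2 members. The median difference of the members between continuous ethanol and water was 0.00, as over all probe sets.

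The arrays nevertheless set limits on how large a difference in the signal of the brightest probe set of each gene could be. Both ends of the 95% confidence interval lay within 0.3 log2 units (1.23-fold) of 0 for 48 of 52 members between continuous ethanol and water, for 49 between limited access and water, and for 50 between the ethanol schedules. The median standard deviation between arrays of a group was 0.10 for the members and 0.12 over all tested probe sets. By the brightest probe set of each gene, intervals were tightest for PKA, where the widest bound over the 6 subunits was 0.13, 0.15 and 0.15 in the 3 comparisons, and widest for the gamma subunits, where Gng11 reached 0.57 below 0. A p above the threshold does not show that groups were equal. These intervals give the sizes still allowed for the signal of those probe sets. Other probe sets of the same gene could differ.

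**Figure D1:**
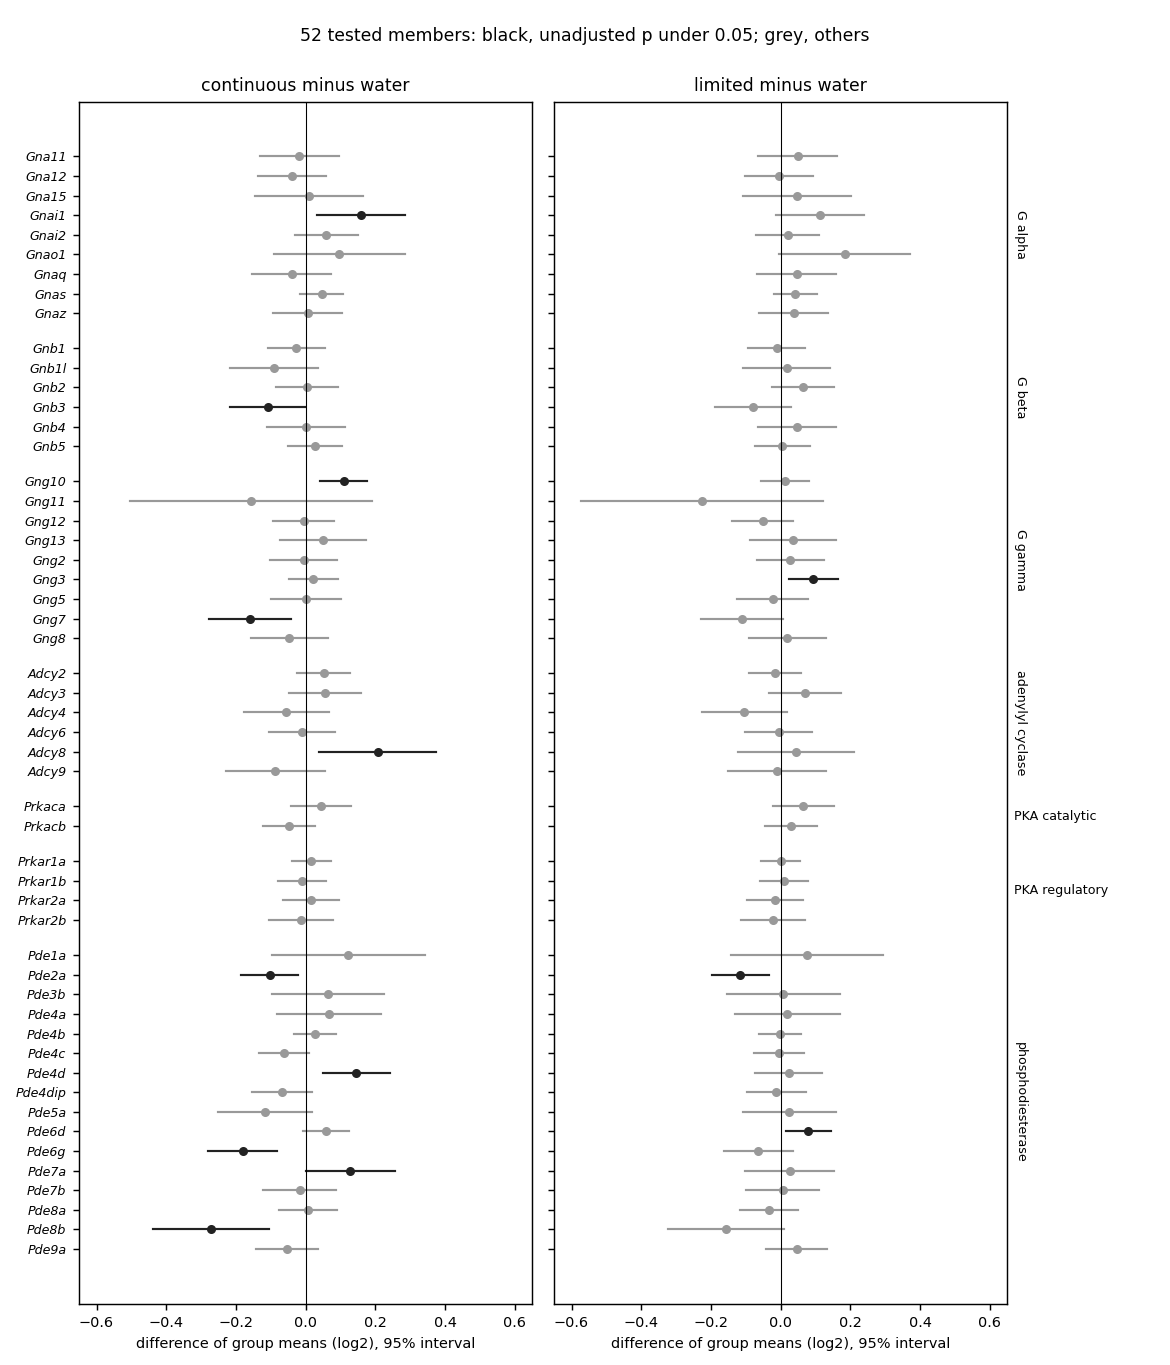
Difference of group means on the log2 scale (horizontal axis) with its 95% confidence interval for the 52 tested members by role, for continuous ethanol (left) and limited access (right) against water. Black marks an unadjusted p under 0.05 and grey all others. Pde8b lay farthest below 0 between continuous ethanol and water (-0.27) and Adcy8 farthest above it (0.21), while the 6 PKA subunits lay close to 0 in both panels.

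The alpha subunits choose the effector. Gnas encodes the stimulatory alpha subunit, which activates adenylyl cyclases, and it ranged over 14.15 to 14.31 (median 14.23) in continuous ethanol, 14.09 to 14.31 (median 14.23) in limited access and 14.06 to 14.26 (median 14.18) in water. The groups covered nearly the same span. Continuous ethanol minus water was 0.05 ± 0.03 (SE; limma, adjusted p = 0.447) and limited access minus water 0.04 ± 0.03 (adjusted p = 0.972). A dimmer tested probe set of Gnas gave 0.05 ± 0.06 and 0.10 ± 0.06. Both ethanol groups were compared with the same 9 water arrays here and throughout, so their differences are not independent of each other.

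Gnai1 and Gnai2 encode inhibitory alpha subunits that restrain cyclases. Gnai1 ranged over 10.52 to 11.03 (median 10.78) in continuous ethanol, 10.48 to 10.91 (median 10.72) in limited access and 10.45 to 10.86 (median 10.61) in water. The water arrays sat lower on average, with wide overlap. The difference from water was 0.16 ± 0.06 for continuous ethanol (adjusted p = 0.217, 8 of 10 arrays above the water mean) and 0.11 ± 0.06 for limited access (adjusted p = 0.972, 9 of 10). Across arrays Gnai1 was also negatively related to the microglial marker score described below. Gnai2 differed from water by 0.06 ± 0.04 and 0.02 ± 0.04, and by 0.03 and -0.01 without water replicate 8, its lowest water array. Gnaq, whose product activates phospholipase C rather than cyclases, differed by -0.04 ± 0.06 and 0.05 ± 0.06, both within the spread between arrays.

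Gnao1 encodes the Go alpha subunit, the abundant partner of neuronal inhibitory receptors. It ranged over 10.74 to 11.33 (median 11.17) in continuous ethanol, 11.10 to 11.37 (median 11.21) in limited access and 10.35 to 11.33 (median 11.12) in water. The limited access arrays formed the tightest group (SD 0.08) and the water arrays the loosest (SD 0.32), with the low end of water set by replicate 9. All 10 limited access arrays lay above the water mean, by 0.18 ± 0.09 on average (adjusted p = 0.972). Without water replicate 9 that difference was 0.10, and that of continuous ethanol went from 0.10 ± 0.09 to 0.01.

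Cyclic AMP signalling reaches genes through the cyclic AMP response element, so the promoters of the members were searched for the letters TGACGTCA, which read the same on both strands, and for TGACG on either strand, which every TGACGTCA contains. RefSeq windows (assembly GRCr8, 250 bases before to 50 after each start) were found for 45 of the 63 genes, as 58 windows. The full element stood in 1 of these (1.72%), beside 1.83% of 33465 windows of all genes, and the shorter form in 14 (24.1%, in 12 genes) beside 21.2%. These shares were close to those of all promoters. The 1 window with the full element is that of Gnao1, on the minus strand of chr19:11198388-11198687 (GRCr8), shown because it is the member window that holds it. The element, in capitals, begins 121 bases before the start.

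Gnao1 promoter: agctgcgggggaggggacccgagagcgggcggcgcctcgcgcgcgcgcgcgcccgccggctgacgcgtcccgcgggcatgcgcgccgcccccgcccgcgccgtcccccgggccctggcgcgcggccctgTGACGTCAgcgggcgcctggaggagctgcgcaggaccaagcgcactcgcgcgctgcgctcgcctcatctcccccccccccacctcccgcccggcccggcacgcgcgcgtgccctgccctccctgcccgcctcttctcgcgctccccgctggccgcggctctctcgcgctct

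A match of letters is a description of this window and not a site shown to be bound. No member moved past the threshold, so the search says nothing about a response of these promoters to ethanol.

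The beta and gamma subunits form the dimer that anchors the alpha subunit and gates channels and cyclases of its own. Gnb1, the common beta subunit, differed between continuous ethanol and water by -0.03 ± 0.04 and between limited access and water by -0.01 ± 0.04 on its brightest probe set, and the other probe sets, given below, lay on the other side of 0. Gnb2 differed by 0.00 ± 0.04 and 0.06 ± 0.04, and Gnb5, the partner of striatal RGS proteins, by 0.03 ± 0.04 and 0.00 ± 0.04. These were all within the spread between arrays. Gnb3, better known from cone photoreceptors, ranged over 8.64 to 9.06 in continuous ethanol (median 8.83), 8.74 to 9.04 in limited access (median 8.81) and 8.81 to 9.21 in water (median 8.92). Its difference between continuous ethanol and water was -0.11 ± 0.05 (adjusted p = 0.307, 9 of 10 arrays below the water mean), and -0.08 without water replicate 9, the highest water array. Gnb1l differed by -0.09 ± 0.06 (adjusted p = 0.464).

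Gng7 is the gamma subunit that pairs with Gnal in medium spiny neurons. It ranged over 10.47 to 10.86 (median 10.73) in continuous ethanol, 10.54 to 10.94 (median 10.77) in limited access and 10.75 to 11.01 (median 10.82) in water. No water array fell below 10.75, and most continuous ethanol arrays did. The difference of continuous ethanol from water was -0.16 ± 0.06 (0.895-fold, 95% interval 0.824 to 0.971, adjusted p = 0.198, 9 of 10 arrays below the water mean), and that of limited access -0.11 ± 0.06 (adjusted p = 0.972, 5 of 10).

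Gng10 encodes a widely expressed gamma subunit. It ranged over 12.36 to 12.49 (median 12.43) in continuous ethanol, 12.21 to 12.43 (median 12.33) in limited access and 12.19 to 12.44 (median 12.29) in water. The continuous ethanol arrays were the tightest and highest group, and all 10 lay above the mean of each of the other groups. The difference was 0.11 ± 0.03 from water (adjusted p = 0.155), and limited access minus continuous ethanol was -0.10 ± 0.03 (adjusted p = 0.526). Limited access was near water, at 0.01 ± 0.03.

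Gng3, a neuronal gamma subunit, had its largest difference in the other ethanol schedule. It ranged over 13.22 to 13.50 (median 13.36) in limited access, 13.22 to 13.34 (median 13.28) in continuous ethanol and 13.13 to 13.39 (median 13.25) in water. Limited access was above water by 0.09 ± 0.03 (adjusted p = 0.972, 9 of 10 arrays) and above continuous ethanol by 0.07 ± 0.03 (adjusted p = 0.534).

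**Figure D2:**
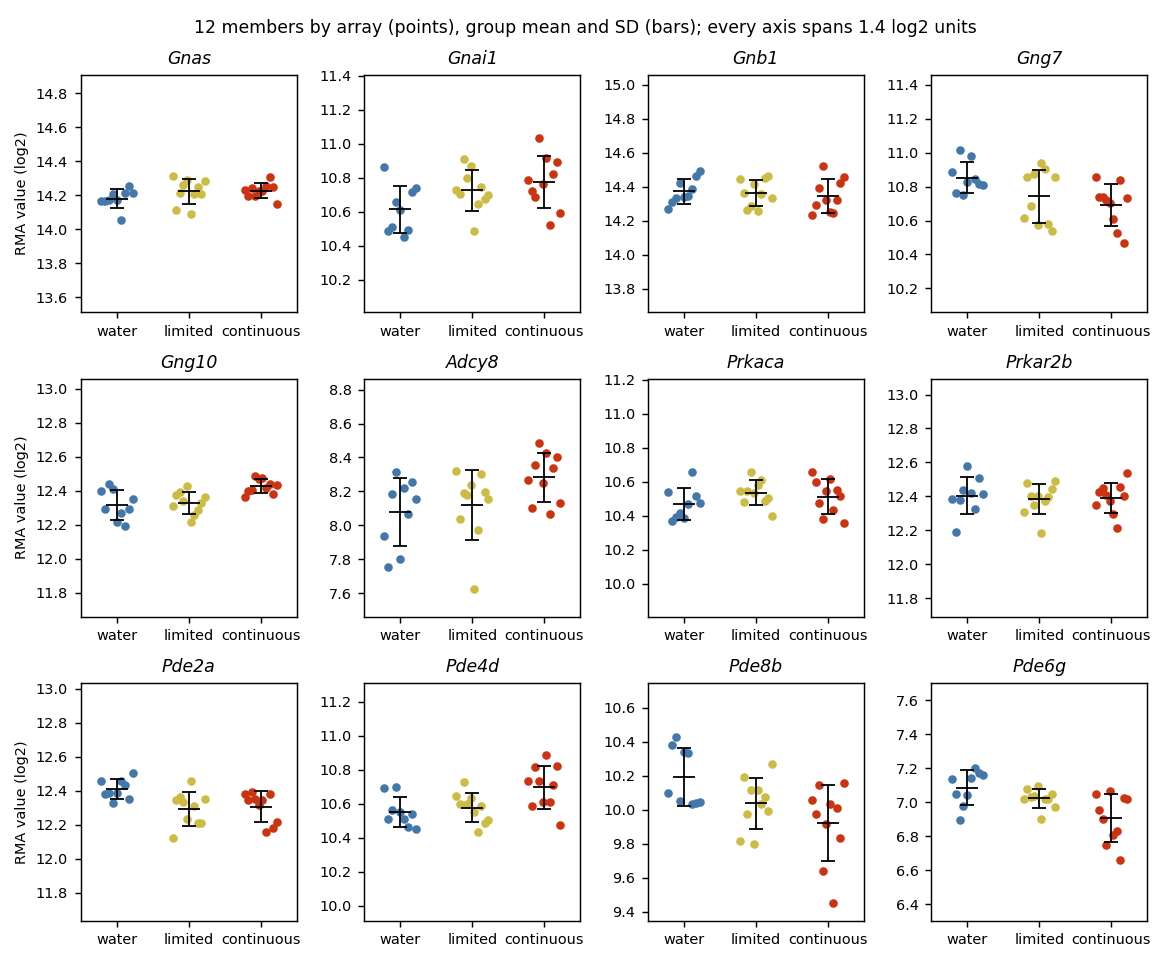
Log2 value (vertical axis, each panel spanning 1.4 log2 units) of 12 members in every array (points), by group, with the group mean and SD as bars. The groups overlapped in every panel. Gng10 was tight and high in continuous ethanol, and Pde8b spread downward in continuous ethanol.

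Adenylyl cyclases make cyclic AMP and differ in their control: Adcy3 and Adcy8 respond to calcium and calmodulin, and Adcy2 and Adcy4 are stimulated by G beta-gamma dimers. Adcy8 ranged over 8.07 to 8.49 (median 8.30) in continuous ethanol, 7.62 to 8.32 (median 8.18) in limited access and 7.76 to 8.31 (median 8.15) in water. Continuous ethanol reached the highest values, but most of its range lay inside that of the other groups. The difference from water was 0.21 ± 0.08 (1.15-fold, 95% interval 1.03 to 1.29, adjusted p = 0.221, 9 of 10 arrays above the water mean) and that of limited access 0.04 ± 0.08. The latter was 0.10 without limited access replicate 6, the lowest array of that group, and 0.00 without water replicate 2, the lowest of water. Limited access minus continuous ethanol was -0.16 ± 0.08 (adjusted p = 0.538).

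Between continuous ethanol and water the other cyclases stayed nearer to 0. Adcy2 differed by 0.05 ± 0.04, Adcy3 by 0.06 ± 0.05 and Adcy4 by -0.05 ± 0.06. Adcy3 depended on 1 array, since water replicate 2 lay at 9.27 and all other water arrays at 9.68 or above. Without it the difference was 0.00. Adcy6 and Adcy9 differed by -0.01 ± 0.05 and -0.09 ± 0.07. For limited access minus water, Adcy4 differed by -0.10, Adcy3 by 0.07 and Adcy2 by -0.02, beside 0.04 for Adcy8. That of Adcy3 was 0.01 without water replicate 2. Adcy10, the soluble cyclase, had a mean of 6.17, below the filter, and Adcy1 had no probe set with a single symbol.

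PKA had the most closely bounded values of all roles when each gene was read from its brightest probe set. Prkacb, the neuronal catalytic subunit, ranged over 13.91 to 14.12 (median 14.02) in continuous ethanol, 14.01 to 14.18 (median 14.08) in limited access and 13.86 to 14.17 (median 14.08) in water. Limited access sat slightly above continuous ethanol, by 0.08 ± 0.04 (adjusted p = 0.530, all 10 arrays above the continuous ethanol mean), and the water arrays covered nearly the whole span of both. Prkaca, the other catalytic subunit, differed from water by 0.04 ± 0.04 in continuous ethanol and 0.07 ± 0.04 in limited access (adjusted p = 0.627 and 0.972). The regulatory subunits Prkar1a, Prkar1b, Prkar2a and Prkar2b, which hold the catalytic subunits inactive, differed from water by -0.02 to 0.02 in both ethanol groups. Prkar1a had the smallest spread of the PKA subunits (SD 0.05) and differed by 0.02 ± 0.03 and 0.00 ± 0.03. Read from the brightest probe set, the intervals of the 6 subunits against water allowed a difference of at most 1.11-fold. The 5 dimmer tested probe sets of Prkacb, Prkar1a and Prkar2a were not so closely bounded. Between continuous ethanol and water they differed by as much as -0.12 ± 0.09 (Prkacb), 0.08 ± 0.04 (Prkar1a) and -0.08 ± 0.09 (Prkar2a).

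Of the 4 members of smallest p between continuous ethanol and water, 3 had a phosphodiesterase symbol (Pde6g, Pde8b and Pde4d). Such a symbol was carried by 16 of the 52 tested members. Pde8b encodes a high-affinity cyclic AMP phosphodiesterase. It ranged over 9.45 to 10.16 (median 9.99) in continuous ethanol, 9.80 to 10.27 (median 10.05) in limited access and 10.03 to 10.43 (median 10.10) in water. All 10 continuous ethanol arrays lay below the water mean, though the top of their range overlapped the water arrays, and limited access lay between. Continuous ethanol minus water was -0.27 ± 0.08 (0.828-fold, 95% interval 0.738 to 0.930, adjusted p = 0.152). Limited access minus water was -0.16 ± 0.08 (adjusted p = 0.972, 9 of 10 arrays below the water mean).

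Pde4d, a cyclic AMP phosphodiesterase that PKA phosphorylates, was higher on average in continuous ethanol. It ranged over 10.48 to 10.89 (median 10.72) in continuous ethanol, 10.43 to 10.72 (median 10.59) in limited access and 10.45 to 10.70 (median 10.54) in water. The limited access and water arrays covered almost the same span. The difference was 0.14 ± 0.05 from water (1.11-fold, adjusted p = 0.167, 9 of 10 arrays above the water mean), 0.02 ± 0.05 for limited access, and -0.12 ± 0.05 for limited access minus continuous ethanol (adjusted p = 0.526).

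Pde2a, which cyclic GMP stimulates to degrade cyclic AMP, was the member with the smallest p between limited access and water. It ranged over 12.16 to 12.39 (median 12.35) in continuous ethanol, 12.12 to 12.46 (median 12.32) in limited access and 12.33 to 12.51 (median 12.39) in water. Both ethanol groups reached below the lowest water array. The differences were -0.10 ± 0.04 (adjusted p = 0.218, 10 of 10 arrays below the water mean) and -0.12 ± 0.04 (adjusted p = 0.972, 9 of 10).

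Pde6g, the photoreceptor inhibitory subunit, had the smallest p of all members between continuous ethanol and water, at a level just inside the filter. Its mean over all arrays was 7.0, and the filter left out probe sets at or below 6.86. It ranged over 6.66 to 7.07 (median 6.93) in continuous ethanol, 6.90 to 7.10 (median 7.03) in limited access and 6.89 to 7.20 (median 7.14) in water. The continuous ethanol arrays were spread over the lower part of the range. The difference was -0.18 ± 0.05 from water (adjusted p = 0.129, 10 of 10 arrays below the water mean) and 0.12 ± 0.05 for limited access minus continuous ethanol (adjusted p = 0.526).

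The remaining phosphodiesterases of neurons had a larger F-test p than Pde8b, Pde4d, Pde2a and Pde6g. Pde4b, a target of the inhibitor rolipram, differed by 0.03 ± 0.03 and 0.00 ± 0.03 from water. Pde7b, a striatal cyclic AMP enzyme, differed by -0.02 ± 0.05 and 0.01 ± 0.05. Pde1a, activated by calcium and calmodulin, had a wider error, at 0.12 ± 0.11 and 0.08 ± 0.11. Pde9a, specific for cyclic GMP, was 0.10 ± 0.04 higher in limited access than in continuous ethanol (adjusted p = 0.526). Among members outside the naming rule, chosen after their values were seen, Pde7a reached an unadjusted p under 0.05 between continuous ethanol and water (0.13 ± 0.06), Pde6d between limited access and water (0.08 ± 0.03), and Pde5a between the ethanol schedules (0.14 ± 0.06). Leaving out Gng11, described with the markers, the 20 members outside the rule differed by -0.12 to 0.13 between continuous ethanol and water, by -0.05 to 0.08 between limited access and water and by -0.10 to 0.14 between the schedules.

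The 11 members below the filter were not tested. They were Adcy10, the alpha subunits Gna14, Gnat1, Gnat2 and Gnat3, and the phosphodiesterase symbols Pde12, Pde1c, Pde3a, Pde6a, Pde6b and Pde6h. Their means over all arrays lay between 4.74 (Pde6a) and 6.38 (Pde6h and Pde1c). The transducins Gnat1 and Gnat2, gustducin (Gnat3) and the catalytic subunits Pde6a and Pde6b belong to sensory cells of eye and tongue.

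Several genes were read by more than 1 probe set, and these did not always move together. Of 21 such genes, 15 had more than 1 tested probe set, which gave 70 tested probe sets in all, none past the threshold. For Pde8b the dimmer probe set differed between continuous ethanol and water by -0.11 ± 0.10 (adjusted p = 0.591) and between limited access and water by 0.04, where the brighter one gave -0.16. For Pde4d the dimmer tested probe set gave 0.03 ± 0.06 beside 0.14. The reverse held for Gng2 and Prkar1a. Their brightest probe sets gave -0.01 ± 0.05 and 0.02 ± 0.03, and their next ones 0.19 ± 0.08 (adjusted p = 0.260) and 0.08 ± 0.04 (adjusted p = 0.279). For Gnb1 the 3 probe sets gave -0.03 ± 0.04, 0.18 ± 0.12 and 0.08 ± 0.06 between continuous ethanol and water, and their mean gave 0.08. They disagreed within groups as well: the deviations of the dimmer ones from their group means correlated with those of the brightest at -0.53 and -0.52 over 29 arrays. For Gng12 the same correlation was 0.80 and for Pde8b 0.68. These are descriptions, since probe sets of 1 gene share the same arrays.

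**Figure D3:**
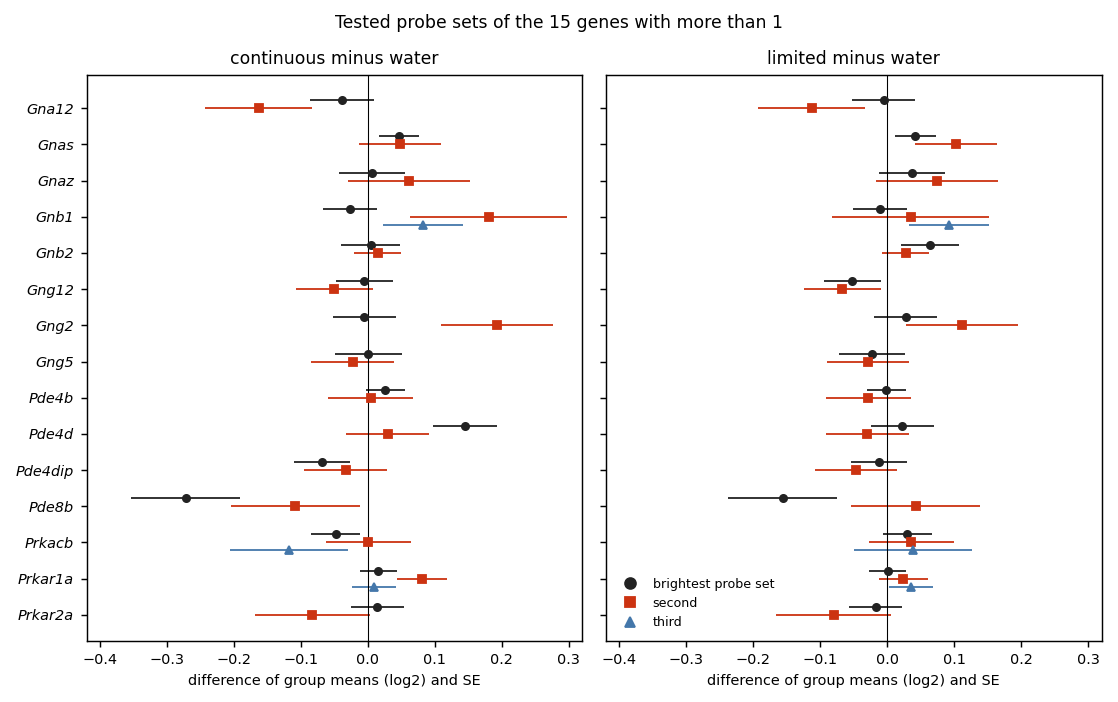
Difference of continuous ethanol from water on the log2 scale (left) and of limited access from water (right) for the tested probe sets of 15 genes, with the standard error as a bar. Black circles are the brightest, red squares the second and blue triangles the third probe set of a gene, and in the left panel those of Pde8b (-0.27 and -0.11), Pde4d (0.14 and 0.03) and Gng2 (-0.01 and 0.19) lay apart.

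The same comparisons were made for other genes of the pathway. A list of 57 other genes of cyclic AMP signalling (anchoring proteins, PKA inhibitors, cyclic AMP-gated channels, exchange factors, transcription factors and the 4 genes left out by symbol) had 53 on the array and 46 tested, none past the threshold. At an unadjusted p under 0.05, 5 (10.9%) differed between continuous ethanol and water, 1 higher and 4 lower, none between limited access and water, and 3 (6.52%) between the schedules. The medians of the list were -0.02, -0.01 and 0.00. Without regard to direction, these shares lay below the background shares given above. By direction, the share lower under continuous ethanol (4 of 46) lay above its background of 6.48%. The share higher (1 of 46) lay below its background of 9.62%.

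The striatal partners of the members differed as follows between continuous ethanol and water. Gnal differed by 0.01 ± 0.04, Adcy5 by -0.15 ± 0.06 (adjusted p = 0.259), Pde10a by -0.12 ± 0.08 (adjusted p = 0.499) and Pde1b by -0.08 ± 0.05 (adjusted p = 0.445). Between limited access and water they differed by 0.05, -0.04, -0.03 and -0.02. Pkib, an inhibitor of PKA, had the smallest p of the list, with 0.30 ± 0.09 for continuous ethanol (adjusted p = 0.158), 0.08 for limited access and -0.22 for limited access minus continuous ethanol (adjusted p = 0.526). Its mean was 6.97 in water, 7.05 in limited access and 7.27 in continuous ethanol, near the cut of the filter at 6.86. The anchoring protein Akap8l differed by -0.17 ± 0.06 (adjusted p = 0.198) and the channel Hcn4 by -0.19 ± 0.10 (adjusted p = 0.332).

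Within groups the arrays also differed in ways that ran with markers of cell types. For each array a score was taken for 8 marker lists (the mean over markers of the log2 deviation from all arrays), and members and scores were compared after subtracting group means, over 29 arrays with 100000 permutations within groups. Of 416 such relations, 33 passed an adjusted p of 0.05, and they involved 17 of 52 members. Relations of other probe sets with the scores were not computed, so these counts have no background share beside them. The counts therefore do not set the members apart from other genes. On ranks (Spearman's rho), 25 of the 33 also passed and 8 did not. The scores are correlated among themselves and come from the same arrays as the members. They do not show in which cells a member is expressed. The members named in the next paragraphs outside the rule (Gng11, Gng5, Gng12, Gng2, Gna12, Gnaz and Pde8a) were chosen after their values were seen.

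Gng11 varied most of all members, from 9.11 to 10.93 (median 10.33) in continuous ethanol, 9.75 to 10.80 (median 10.15) in limited access and 10.06 to 11.32 (median 10.28) in water. It followed the leptomeningeal score with r = 0.941 (rho 0.833, permutation p = 1e-05, the smallest these permutations give, adjusted p = 0.00209), and r was 0.995, 0.810 and 0.948 within continuous ethanol, limited access and water. Without the 2 arrays farthest from the median score, r was 0.884. The lowest array, continuous replicate 3, had the lowest leptomeningeal score (-1.46) and the highest, water replicate 2, had the highest (1.0). The difference of Gng11 between continuous ethanol and water was -0.16 ± 0.17, and 0.10 with the score as a covariate (adjusted p = 0.671 and 0.496). With the medium spiny neuron score as a covariate it was -0.29 (adjusted p = 0.296), and -0.28 for limited access against water (adjusted p = 0.882) in place of -0.23. Without the 5 arrays apart it was -0.04, so its size and sign depended on what was held constant. Gng11 also followed the endothelial and mural score (r = 0.722, rho 0.589, permutation p = 0.00027, adjusted p = 0.0113, r = 0.565 without the 2 farthest arrays). Gng11 is known as a gamma subunit of tissues outside the nervous system.

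Gng7 varied with its partner Adcy5 (r = 0.768, rho 0.790, permutation p = 2e-05, adjusted p = 0.00279 over 419 relations). The relation held within each group, with r of 0.892, 0.637 and 0.882, and at 0.694 without the 2 farthest arrays. It was weaker with Gnal (r = 0.473, rho 0.418, permutation p = 0.00562, adjusted p = 0.0654). The relation of Gng7 with Pde10a was also tested and did not pass the threshold. Gng7 also followed the medium spiny neuron score (r = 0.628, rho 0.622, permutation p = 0.00025, adjusted p = 0.0113, r = 0.615 without the 2 farthest arrays). That score was lower in continuous ethanol than in water by 0.06 on average (difference -0.06, exact permutation p = 0.289), and with it as a covariate the difference of Gng7 was -0.12 in place of -0.16.

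Prkar2b, the regulatory subunit enriched in brain, followed the medium spiny neuron score too (r = 0.671, rho 0.621, permutation p = 0.0002, adjusted p = 0.0113). Within groups r was 0.733, 0.293 and 0.874, and it was 0.616 without the 2 farthest arrays. It was the 1 PKA subunit with a relation past the threshold. Gnaz, an inhibitory alpha subunit of neurons, followed the cortical excitatory score (r = 0.743, rho 0.760, permutation p = 1e-05, adjusted p = 0.00209), with r of 0.878, 0.832 and 0.433 within groups and 0.807 without the 2 farthest arrays.

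Several members followed glial markers. Pde8a, the close relative of Pde8b, followed the oligodendrocyte score (r = 0.686, rho 0.607, permutation p = 6e-05, adjusted p = 0.00628, r = 0.705 without the 2 farthest arrays), as did Gna12 (r = 0.652, rho 0.583, permutation p = 0.00034, adjusted p = 0.0126, 0.557 without them). Gng2 ran against that score (r = -0.641, rho -0.654, permutation p = 0.00024, adjusted p = 0.0113, -0.671 without them). The sign held within all groups for each of these genes.

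The microglial score was followed by Gng12 (r = 0.682, rho 0.683, permutation p = 0.00011, adjusted p = 0.00922, 0.622 without the 2 farthest arrays) and by Gng5 (r = 0.779, rho 0.615, permutation p = 0.00045, adjusted p = 0.0135, 0.614 without them). For Gng5 the value within continuous ethanol was 0.964 and within limited access 0.192. Pde1a and Gnai1 ran the other way (r = -0.652, rho -0.712, permutation p = 0.00027, adjusted p = 0.0113 and r = -0.607, rho -0.576, permutation p = 0.00096, adjusted p = 0.0237). Without the 2 farthest arrays these were -0.542 and -0.468. Continuous replicate 7 had the highest Gng5 value (12.60) and the highest microglial (0.39) and astrocyte (0.24) scores. With the astrocyte score, 4 members had a positive and 4 a negative relation past the threshold.

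**Figure D4:**
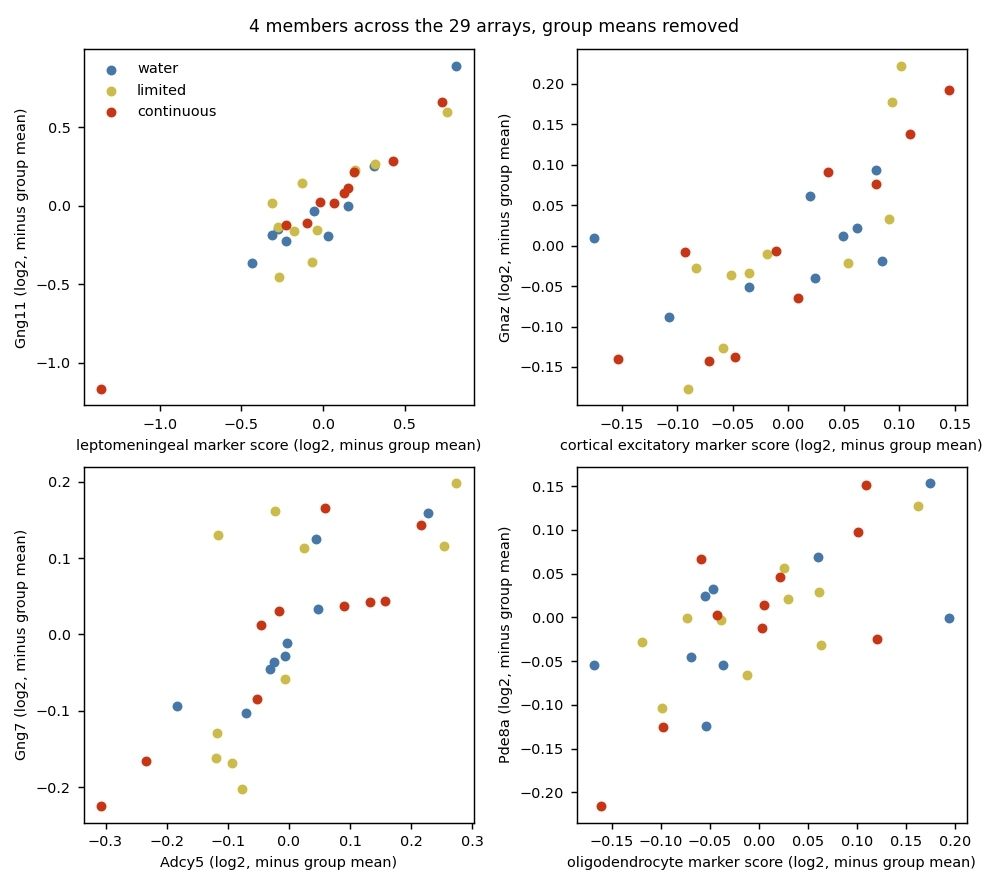
Gng11, Gnaz and Pde8a against a marker score and Gng7 against Adcy5 over the 29 arrays (points), all as log2 deviations from the group mean, coloured by group. Gng11 runs with the leptomeningeal score in all groups (r = 0.941), and Gng7 with Adcy5 (r = 0.768).

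**Figure D5:**
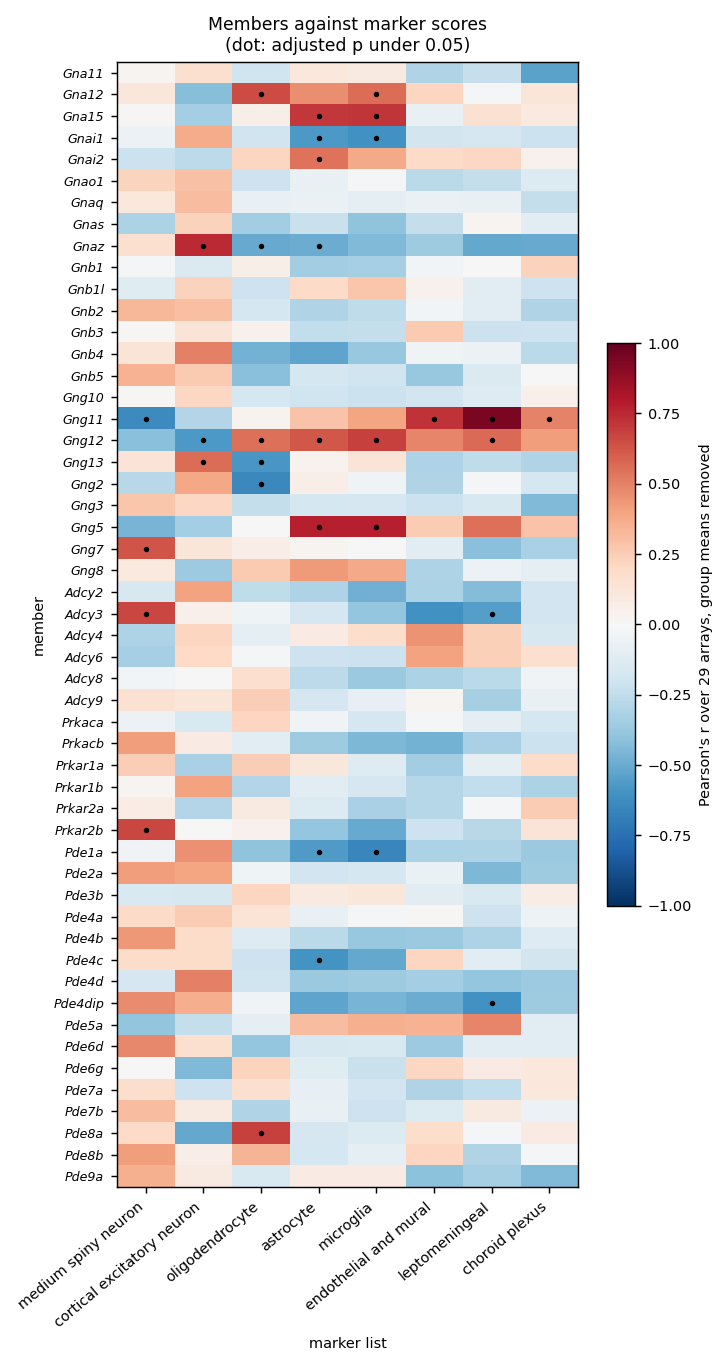
Pearson correlation over 29 arrays (colour, from negative to positive) between members (rows) and the 8 marker scores (columns), after subtracting group means. Dots mark an adjusted p under 0.05. Gng11 stands out in the leptomeningeal column (0.941), and Gng5 in the astrocyte and microglial columns (0.779 in the microglial column).

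None of the 24 comparisons of marker scores between groups passed an adjusted p of 0.05. The smallest was the endothelial and mural score, lower in continuous ethanol than in water (difference -0.13, exact two-sided permutation p = 0.00948, adjusted p = 0.228). The astrocyte score of limited access was next (difference from water -0.05, exact permutation p = 0.0452, adjusted p = 0.542). Among the members of smallest p between continuous ethanol and water, Pde8b, Pde6g, Pde4d, Pde2a, Gng10 and Adcy8 had no relation with a marker score past the threshold, and Gng7 and Gnai1 had those given above. The part of cell composition in these differences was not tested beyond the covariate values given in the closing section. Those values cover Pde8b, Pde6g, Pde4d, Pde2a, Gng10 and Gng7, and some moved with the covariate.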

How the data were processed

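Per the labels' protocols, total RNA of 29 accumbens shell samples was labelled with biotin for Affymetrix rat arrays. The authors deposited log2 values made with RMA, per the submitters' processing notes; software and versions are not given in the sources used here. RMA makes array distributions nearly equal, so it hides any shift common to all transcripts. No column of values was left unused (0 columns).

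All arrays entered 1 fit with group as factor (limma 3.58.1, lmFit and eBayes, R 4.3.3), after leaving out 57 control probe sets and the dimmest 30 percent by mean over all arrays (at or below 6.86). P-values are two-sided and adjusted by Benjamini-Hochberg over 21729 probe sets with a threshold of 0.05. All adjusted p-values of genes and probe sets come from this limma fit. Counts of arrays on one side compare the first group's arrays with the mean of the second. Symbols of 63 of 63 members matched the GRCr8 gene table by gene ID. The rule named members at an unadjusted p under 0.01 in any comparison, the 3 of smallest F-test p in each role, and a fixed list of well-known members. The members, gene lists and marker lists were chosen with earlier results of these data known. Marker scores of groups were set against each other in 24 exact permutation tests (two-sided), and member relations by 100000 permutations within groups over 419 relations. The number of arrays limits the precision. The labels do not say that samples came from separate animals, so the p-values reflect only how far these samples differ, which may be technical. Replicate numbers recur in the 3 groups, and deviations of same-numbered arrays correlated at -0.24 to 0.34, over 0.1 in 12 of 28 pairs. Arrays of different numbers were not compared in this way, so these values do not settle whether the numbers mark pairs. The main fit did not use the numbers, and an alternative fit used them as a block.

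Alternatives were no filter, a stricter filter (dimmest 50 percent), quantile normalization again, median centring, a trended and robust prior, array weights, a replicate block, a fit of only the groups compared, other probe set rules, marker scores as covariates and each array left out. Leaving out the 5 arrays that stood apart was chosen after seeing the data.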

Additional observations from a re-analysis of the deposited data

Results flagged for a closer look

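Of the named members, 93 sets of values (1 member in 1 group) were screened for an array whose gap to its nearest neighbour was large for the range of its group. In 10 of them an array stood out. Chance alone marks about 1 in 20 such sets.

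Among the alpha subunits, Gnai2 was 10.00 in water replicate 8, where the next water array was 10.17. Gnao1 was 10.74 in continuous replicate 4 with the next at 11.06, and Gnas was 14.06 in water replicate 6 with the next at 14.17. All these arrays were low for their group. Of the beta subunits, Gnb1l was low in continuous replicate 10 (6.97, next 7.18), while Gnb3 was high in water replicate 9 (9.21, next 9.0) and Gnb5 in continuous replicate 4 (11.84, next 11.68).

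Adcy3 was low in water replicate 2 (9.27, next 9.68) and Adcy8 in limited access replicate 6 (7.62, next 7.97). Adcy4 was high in continuous replicate 1 (7.46, next 7.23), and Pde7b was high in water replicate 5 (7.79, next 7.55). No PKA subunit had such an array.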

How the results depend on the processing

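No member passed the threshold in any comparison under the 13 alternatives or with any 1 of the 29 arrays left out. The smallest adjusted p of a member between continuous ethanol and water was 0.0809 with the replicate block (Pde8b) and 0.0622 without water replicate 4 (Pde6g). The block changed no call of a member. The number of probe sets past the threshold between continuous ethanol and water was 28 with the replicate block and 12 without the 5 arrays apart, beside 33, and 18 to 94 with 1 array left out. Leaving out water replicate 5 gave 18, water replicate 8 gave 59, limited access replicate 6 gave 66 and water replicate 4 gave 94. For limited access against water it was 1 with array weights, beside 0. Between the schedules it was 0 with the replicate block, 2 with the leptomeningeal score as covariate, 0 with the medium spiny neuron score as covariate and 0 without the 5 arrays apart, beside 1, and 0 to 3 with 1 array left out. The cause was not tested. Of 1266 values of named members per comparison, 27, 65 and 23 changed sign (continuous ethanol against water, limited access against water, and between schedules), and none crossed the threshold. Between continuous ethanol and water, Pde8b ranged over -0.31 to -0.19 and Pde6g over -0.20 to -0.14. Gng7 ranged over -0.20 to -0.12, with the leptomeningeal and the medium spiny neuron score as covariates. With the same covariates in that order, Pde8b was -0.31 and -0.23, Pde2a -0.13 and -0.08, and Pde4d 0.12 and 0.14. Pde6g was -0.17 and -0.18 with them, and Gng10 0.10 and 0.11. Pde4d was 0.07 with the mean of all its probe sets in place of 0.14. None of the 5 arrays apart was from continuous ethanol. Without them, between continuous ethanol and water, Adcy8 was 0.13 in place of 0.21 and Gnai1 0.11 in place of 0.16. Pde1a was then -0.01 in place of 0.12, and Pde8b -0.19 in place of -0.27. Pde6g (-0.18), Gng7 (-0.16) and Pde2a (-0.10) kept their values.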
